A study of Homo sapiens with 12 samples.

Results

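The genes that make cholesterol, bring it into the cell and move it between membranes were followed in cells in which phosphatidylserine synthesis had been inhibited. They were taken from a list of 29 genes, matched by gene name in the count tables and joined by gene identifier. The list was chosen with earlier results of these data known, so its counts are not those of a blind choice. All 29 were found, among 30984 genes in the KYSE30 table and 78691 in the U138MG table, and all 29 passed the filter on low counts in both. Of the list, 9 genes belong to the mevalonate pathway to squalene, among them *GGPS1*, which branches off it. A further 12 lead from squalene to cholesterol, 2 are lipoprotein receptors and 6 bind, move or store sterol. Poly-A RNA-seq had been done on KYSE30, a line from an esophageal squamous cell carcinoma, and on libraries labelled U138MG, a glioblastoma line, both given as wild type. The 4 groups were KYSE30 with DMSO, the vehicle, KYSE30 with 100 nM of the PTDSS1 inhibitor PTDSS1i, and the same pair for U138MG, each with 3 libraries and each after 48 h of exposure, 12 libraries in all. Nothing in the labels says whether the libraries of a group came from separate cultures, so the p-values measure the spread between these libraries only. The labels also give the KYSE30 medium, with fetal bovine serum, for the U138MG libraries.

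Cholesterol is built from acetyl-CoA. The mevalonate pathway makes the isoprenoid farnesyl diphosphate, squalene synthase joins such units head to head, and a series of enzymes in the endoplasmic reticulum closes and trims the rings. Most of these genes are read by SREBP2, a transcription factor that is held in the endoplasmic reticulum by INSIG proteins while sterol is plentiful and is released to the nucleus when sterol in that membrane falls. Cholesterol taken up in lipoproteins leaves the lysosome through NPC2 and NPC1, is carried between membranes by START domain proteins, and is stored as esters made by SOAT1.

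The libraries held between 18800932 and 26514658 counts, and replicates of every group differed by more than sampling noise. The labelled identity was checked against marker genes, given as mean CPM (counts scaled to the library total) in DMSO. In KYSE30 the epithelial genes *KRT8* (4613 CPM), *CDH1* (514 CPM) and *EPCAM* (279.6 CPM) were high, *TP63* and, of the glial and mesenchymal list, *SOX2* stood at 98.2 and 99.4 CPM, *KRT5* and *KRT14* were under 1 CPM and *GFAP* was at 0, with 7 of 9 squamous and 5 of 8 listed glial and mesenchymal markers at 1 CPM or more. The libraries labelled U138MG went against their label in that the squamous and epithelial genes *KRT5* (1469.5 CPM), *CDH1* (463 CPM), *TP63* (276 CPM) and *EPCAM* (248 CPM) were high, whereas *VIM* was at 0.206 CPM, *GFAP* at 2.36 CPM, and *OLIG2* and *S100B* were at 0. Of the glial and mesenchymal list, *SPARC* (713 CPM), *COL1A1* (54.5 CPM) and *SOX2* (38.9 CPM) were well detected there, and of the squamous list *KRT14* (0.198 CPM) and *KRT6A* (0.488 CPM) were not. In these libraries 7 of 9 squamous and 5 of 10 glial and mesenchymal markers reached 1 CPM. The summed squamous markers moved with treatment, with 7964 to 8493 CPM in DMSO and 10410.1 to 10665 CPM in PTDSS1i in KYSE30 and 5097 to 5368 CPM in DMSO and 4231 to 4348 CPM in PTDSS1i in the libraries labelled U138MG, and the summed glial and mesenchymal markers stood at 123 to 128 CPM in DMSO and 137 to 141 CPM in PTDSS1i and at 809 to 833 CPM in DMSO and 414 to 429 CPM in PTDSS1i. The sums hide genes that went in opposite directions. In the libraries labelled U138MG, *KRT5* went to 526 CPM in PTDSS1i, *CDH1* to 269, *TP63* to 194 and *KRT8* from 1842 to 1024. *SFN* went up from 282 to 1064 CPM, *KRT18* from 679 to 848 and *EPCAM* to 348. Of the other list, *SPARC* went to 348 CPM and *SOX2* to 4.29, and *COL1A1* stood at 54.7. The part of these shifts in the results below was not tested. The labels put all KYSE30 libraries in one batch and all U138MG libraries in another, so line and batch cannot be told apart.

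PTDSS1i raised nearly the whole cholesterol module in both lines. In KYSE30, 25 of 29 members were higher after PTDSS1i than after DMSO at an adjusted p under 0.05 (edgeR's quasi-likelihood test over all 16389 genes tested), 1 was lower and 3 did not pass, against 30.1% of all genes tested that were higher and 32.0% that were lower. Of the members, 21 were higher by more than 1 on the log2 scale, that is by more than a doubling, against 6.40% of all genes, and none was lower by as much, against 7.04%. The 3 PTDSS1i libraries and the 3 DMSO libraries did not overlap for 26 of 29 members, against 66.3% of all genes. In the libraries labelled U138MG, 27 members were higher and 2 lower, against 33.9% and 33.6% of the 17666 genes tested, and 14 were higher by more than 1 on the log2 scale, against 8.19%. None was lower by that much, against 11.6%, and the treatments did not overlap for any of the 29 members, against 71.4%. The median log2 fold change over the members was 1.82 in KYSE30 (range -0.57 to 3.51) and 0.94 in the libraries labelled U138MG (range -0.24 to 2.42), whereas the median over all genes was -0.03 in each. A total of 25 members were higher in both lines and *LBR* was lower in both. *TMEM97* and *SOAT1* were higher in the libraries labelled U138MG but did not pass in KYSE30, and *PMVK* was lower there and did not pass in KYSE30. In such bulk samples, fewer cells of a kind and less RNA per cell cannot be told apart.

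**Figure D1:**
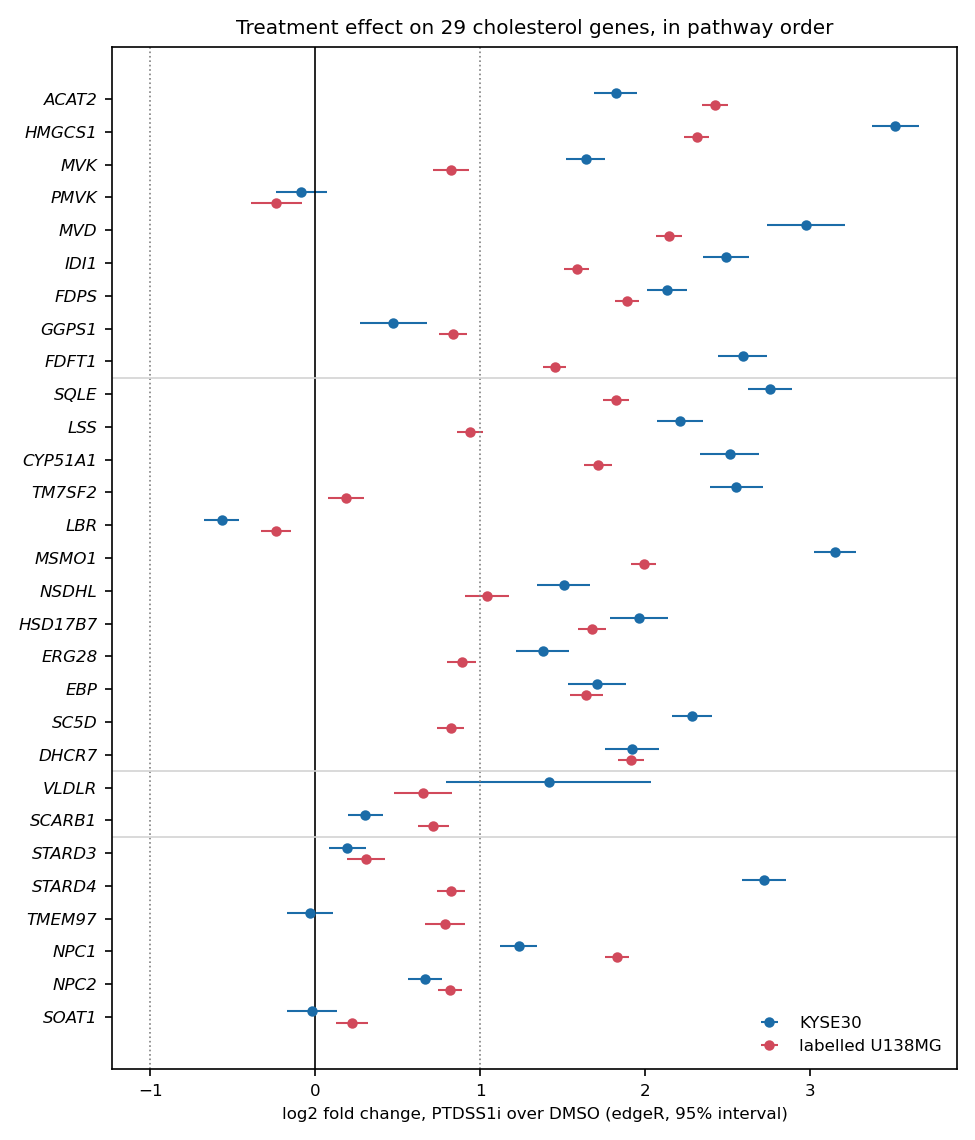
Log2 fold change of PTDSS1i over DMSO for the 29 members in pathway order, with 95% intervals from edgeR (n = 3 libraries per group), for KYSE30 in blue and the libraries labelled U138MG in red. Grey horizontal lines part the mevalonate enzymes, the later enzymes, the receptors and the transport genes, and dotted lines mark a doubling or halving. The KYSE30 points lie up to 3.51 and only *LBR* has an interval wholly below 0 in both lines.

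The promoters of these genes are shown because the members moved together. RefSeq windows on GRCh38.p14 covered 25 of the 29 members, and the 250 bases before the first listed start of each were searched on both strands. The letters CCAAT, which read ATTGG on the other strand, the core of the site bound by NF-Y, a factor known to act beside SREBP2 at sterol genes, stood in 17 of 25 member windows (68.0%) and in 33.0% of 27305 windows of the same length over all genes. With any listed start of a gene allowed, 19 of 25 members held them, against 37.0% of all genes. The 42 matches in members lay a median of 111.5 bases before the first listed RefSeq start (range 30 to 228). That start can differ from the gene start in GENCODE 29. The windows of *CYP51A1*, *DHCR7*, *EBP*, *ERG28*, *MVK*, *NPC1*, *NPC2*, *PMVK* and *SC5D* lie wholly past the latter, and others partly. The window of *IDI1* lies far before it. Matches in such windows need not lie in the main promoter. The letters GGGCGG, the core of an Sp1 site, stood in 22 of 25 (88.0%) against 42.3% of all windows. The windows over all genes include genes that did not pass the filter on low counts, whereas every member passed it. How far these differences hold against expressed genes alone was not tested. The letters TCACNCCAC, a core of the sterol response element, were in none of the 25 windows and in 0.88% of all. With so rare a form, and no other form searched, this cannot show that the members lack such elements. The following lines give the windows of *HMGCS1*, *MSMO1* and *MVD*, the members with the largest log2 fold changes in KYSE30, and of *LBR*, the member lower in both lines, 5′ to 3′ along the gene's strand, with CCAAT or ATTGG in capitals, as far as they also lie before the start of the gene in GENCODE 29.
HMGCS1 (chr5:43313513-43313662, minus strand): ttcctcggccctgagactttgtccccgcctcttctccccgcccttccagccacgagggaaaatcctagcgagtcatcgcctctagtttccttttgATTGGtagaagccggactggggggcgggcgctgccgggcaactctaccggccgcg
MSMO1 (chr4:165327419-165327622, plus strand): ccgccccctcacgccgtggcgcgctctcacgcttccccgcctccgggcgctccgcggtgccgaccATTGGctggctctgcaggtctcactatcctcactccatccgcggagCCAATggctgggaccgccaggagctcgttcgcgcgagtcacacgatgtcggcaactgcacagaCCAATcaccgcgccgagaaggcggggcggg
MVD (chr16:88663162-88663341, minus strand): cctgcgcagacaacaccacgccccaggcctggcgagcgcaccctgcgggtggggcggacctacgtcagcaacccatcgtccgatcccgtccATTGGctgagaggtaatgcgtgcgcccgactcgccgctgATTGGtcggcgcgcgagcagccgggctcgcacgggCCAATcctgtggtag
LBR (chr1:225428926-225429071, minus strand): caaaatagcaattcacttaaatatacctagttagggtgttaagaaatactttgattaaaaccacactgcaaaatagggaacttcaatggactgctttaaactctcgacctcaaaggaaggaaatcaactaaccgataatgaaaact
In the whole windows the match count was 2 in *HMGCS1*, 4 in *MSMO1*, 3 in *MVD* and 0 in *LBR*, of which 1, 3, 3 and 0 lie in the bases shown. The other members without a match in the first window were *CYP51A1*, *GGPS1*, *IDI1*, *NPC1*, *PMVK*, *STARD3* and *VLDLR*, of which *CYP51A1*, *IDI1* and *NPC1* rose by more than 1 on the log2 scale in both lines. *GGPS1* and *IDI1* held a match once any listed start was allowed. *SOAT1* and *TMEM97* held a match and did not pass the test in KYSE30. *ACAT2*, *FDFT1*, *SQLE* and *SCARB1* had no window.

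Of the 9 genes listed for the mevalonate pathway to squalene, with the branch gene *GGPS1* included, 8 rose in each line. Their median log2 fold change over all 9 was 2.13 in KYSE30 and 1.58 in the libraries labelled U138MG. *HMGCS1* (GRCh38 chr5:43289395-43313512, minus strand), which joins acetyl-CoA to acetoacetyl-CoA to form HMG-CoA, had the largest log2 fold change of all members in KYSE30. It measured 73.3, 60.6 and 69.0 normalized CPM (CPM further scaled by TMM, the trimmed mean of M-values) in the 3 DMSO libraries and 758, 752 and 811 in the 3 PTDSS1i libraries. The PTDSS1i libraries all stood far above the DMSO libraries, with a fitted change of 11.4-fold and a log2 fold change of 3.51 (SE 0.0672, adjusted p = 8.88e-20). *HMGCS1* measured 723, 705 and 753 normalized CPM in DMSO and 3531, 3736 and 3547 in PTDSS1i in the U138MG-labelled libraries. Again no library of one treatment reached the other, and the log2 fold change was 2.31 (SE 0.0371, adjusted p = 7.14e-28). *ACAT2* (chr6:159760328-159779055, plus strand), the cytosolic thiolase that makes acetoacetyl-CoA one step earlier, measured 90.4, 74.1 and 81.2 normalized CPM in DMSO and 300.3, 279 and 288 in PTDSS1i in KYSE30, a log2 fold change of 1.82 (SE 0.0628, adjusted p = 9.96e-16). It measured 106, 105 and 113 in DMSO and 566, 565 and 604 in PTDSS1i in the U138MG-labelled libraries, a log2 fold change of 2.42 (SE 0.0389, adjusted p = 7.14e-28), the largest of all members there.

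The next enzymes phosphorylate and decarboxylate mevalonate, and they did not move alike. *MVK*, mevalonate kinase, rose from 57.2 ± 4.34 to 178 ± 2.15 normalized CPM in KYSE30 (SD, n = 3), a log2 fold change of 1.64 (SE 0.0568, adjusted p = 4.54e-16), and by 0.82 in the libraries labelled U138MG. *PMVK* (chr1:154924734-154936991, minus strand), the phosphomevalonate kinase that acts directly after it, measured 25.0, 22.2 and 21.9 normalized CPM in DMSO and 21.6, 21.4 and 22.1 in PTDSS1i in KYSE30. Its treatments overlapped and its log2 fold change of -0.08 (SE 0.0752, adjusted p = 0.343) did not pass, with a 95% interval of -0.24 to 0.07. *PMVK* measured 23.0, 21.9 and 21.7 in DMSO and 18.9, 19.8 and 17.8 in PTDSS1i in the U138MG-labelled libraries and fell by 0.24 on the log2 scale (adjusted p = 0.00684). *MVD* (chr16:88651935-88663161, minus strand), the decarboxylase that follows, measured 85.7, 62.9 and 68.2 normalized CPM in DMSO and 596, 546 and 559 in PTDSS1i in KYSE30, a log2 fold change of 2.97 (SE 0.105, adjusted p = 6.42e-09). In KYSE30 a member that did not pass thus sat in the pathway between neighbours that rose 3.11-fold and 7.85-fold. *MVD* rose by 2.14 on the log2 scale in the libraries labelled U138MG, from 61.0 ± 1.48 to 269.6 ± 4.27 normalized CPM.

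The isoprenoid genes all rose. *IDI1*, the isomerase that supplies dimethylallyl diphosphate, rose from 89.5 ± 9.77 to 502 ± 18.6 normalized CPM in KYSE30 and from 85.3 ± 1.68 to 256 ± 8.05 in the libraries labelled U138MG. *FDPS*, farnesyl diphosphate synthase, rose from 207 ± 16.4 to 907 ± 16.2 and from 292 ± 9.52 to 1081 ± 24.5, log2 fold changes of 2.13 and 1.89. *FDFT1*, squalene synthase, which commits farnesyl diphosphate to sterols, rose by 2.59 in KYSE30 and by 1.45 in the libraries labelled U138MG. *GGPS1* (chr1:235327350-235344532, plus strand), which instead makes geranylgeranyl diphosphate for protein prenylation, changed less than these in KYSE30, with 10.0, 11.6 and 12.5 normalized CPM in DMSO and 15.9, 14.5 and 16.9 in PTDSS1i, a log2 fold change of 0.47 (SE 0.0977, adjusted p = 0.000255). It measured 69.1, 71.0 and 65.9 in DMSO and 119, 123 and 125 in PTDSS1i in the U138MG-labelled libraries, a log2 fold change of 0.84 (SE 0.0414, adjusted p = 1.33e-16). The library kit does not mark strand, and exons of another gene cover part of several of these genes in GENCODE 29. The counts of *GGPS1* (37.3% of its exon bases shared with *TBCE*), *ACAT2* (33.9% with *SOD2-OT1*, 26.5% with *SOD2*, 9.2% with *TCP1*), *FDPS* (18.6% with *RUSC1-AS1*), *HMGCS1* (703 of 4702 exon bases with AC114947.2) and *IDI1* (14.8% with *IDI2-AS1*) are uncertain to that extent. *TCP1* took 34253 counts in the KYSE30 table and 44700 in the U138MG table, beside 24127 and 47424 for *ACAT2*.

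Of the 12 genes from squalene to cholesterol, 11 rose and *LBR* fell in each line, with a median log2 fold change of 2.09 in KYSE30 and 1.34 in the libraries labelled U138MG. *SQLE*, the squalene epoxidase and a rate-limiting step, measured 100.1, 83.1 and 91.1 normalized CPM in DMSO and 643, 595 and 617 in PTDSS1i in KYSE30, a log2 fold change of 2.76 (SE 0.0640, adjusted p = 2.04e-18). The values in the U138MG-labelled libraries were 311, 294 and 323 in DMSO and 1056, 1091 and 1129 in PTDSS1i, a log2 fold change of 1.82 (SE 0.0378, adjusted p = 2.31e-25). *LSS*, which cyclizes the epoxide to lanosterol, rose 4.63-fold in KYSE30, from 297 ± 33.7 to 1375 ± 25.2 normalized CPM, and 1.91-fold in the libraries labelled U138MG, from 117 ± 5.27 to 225 ± 9.15. *CYP51A1*, the lanosterol 14-alpha-demethylase, rose by 2.51 and 1.71 on the log2 scale. Its level is uncertain, since 79.4% of its exon bases also belong to AC000120.2 on the same strand in GENCODE 29.

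The 14-reductase step is carried out by 2 enzymes, and their genes moved in opposite directions in KYSE30. *TM7SF2* (chr11:65111845-65116384, plus strand), a reductase of the endoplasmic reticulum, measured 17.9, 19.8 and 16.5 normalized CPM in DMSO and 117, 103 and 97.9 in PTDSS1i in KYSE30, a log2 fold change of 2.55 (SE 0.0770, adjusted p = 2.76e-16). *LBR* (chr1:225401502-225428925, minus strand), the lamin B receptor, a protein of the inner nuclear membrane with the same reductase activity, measured 192, 183 and 197 in DMSO and 130.2, 125 and 130.2 in PTDSS1i. All 3 PTDSS1i libraries lay below all DMSO libraries, and *LBR* fell by 0.57 on the log2 scale (SE 0.0504, adjusted p = 2.5e-09). Per kb of exon, *LBR* was above *TM7SF2* in DMSO, at 36.3 ± 1.36 against 5.31 ± 0.482 normalized CPM per kb, and below it in PTDSS1i, at 24.5 ± 0.532 against 31.0 ± 2.88 (SD, n = 3). In the libraries labelled U138MG the same pair moved little, but its order per kb changed there too. *LBR* stood at 15.9 ± 0.738 against 12.9 ± 0.586 normalized CPM per kb for *TM7SF2* in DMSO. In PTDSS1i, *LBR* stood at 13.4 ± 0.0969 against 14.7 ± 0.446 for *TM7SF2*. *TM7SF2* measured 44.8, 45.2 and 41.6 normalized CPM in DMSO and 51.7, 49.1 and 49.0 in PTDSS1i there, without overlap, a log2 fold change of 0.19 (SE 0.0524, adjusted p = 0.00261), which no longer passed with library size alone (0.04, adjusted p = 0.506) or upper-quartile factors (0.04, adjusted p = 0.5). *LBR* measured 84.8, 79.0 and 86.4 in DMSO and 71.2, 70.2 and 70.4 in PTDSS1i, and fell by 0.24 on the log2 scale (adjusted p = 2.28e-05).

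The genes of the 4-demethylation complex all rose. *MSMO1* (chr4:165327623-165343160, plus strand), the C4-methyl oxidase, had the second largest log2 fold change of the members in KYSE30. It measured 73.0, 64.7 and 70.9 normalized CPM in DMSO and 627, 585 and 638 in PTDSS1i in KYSE30, and 152, 145 and 153 in DMSO and 580.2, 605 and 603 in PTDSS1i in the libraries labelled U138MG. The corresponding log2 fold changes were 3.15 (SE 0.0606, adjusted p = 6.21e-20) and 1.99 (SE 0.0356, adjusted p = 7.83e-27), with no overlap between treatments. *NSDHL*, the dehydrogenase and decarboxylase of the complex, rose by 1.51 and 1.04, the latter at 0.96 without DMSO replicate 2 and at 0.89 with library size alone or upper-quartile factors. *HSD17B7*, the ketoreductase, rose from 7.90 ± 0.366 to 30.8 ± 1.70 normalized CPM and from 42.7 ± 0.483 to 136 ± 2.00, and *ERG28*, the scaffold that holds the complex together, by 1.38 and 0.89 on the log2 scale. The pseudogene *HSD17B7P2* took 670 counts in the KYSE30 table, beside 2510 for *HSD17B7*, and none in the U138MG table, so reads could have been split between them in KYSE30.

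The last steps rose as well. *EBP*, the sterol isomerase, rose from 15.4 ± 2.23 to 50.3 ± 2.98 normalized CPM in KYSE30 and from 46.5 ± 3.79 to 145 ± 4.26 in the libraries labelled U138MG. *SC5D*, the C5-desaturase, rose by 2.28 on the log2 scale in KYSE30 and by 0.82 in the libraries labelled U138MG. *DHCR7* (chr11:71428193-71452868, minus strand), the reductase that turns 7-dehydrocholesterol into cholesterol, measured 1412, 1123 and 1167 normalized CPM in DMSO and 4945, 4517 and 4547 in PTDSS1i in KYSE30, a log2 fold change of 1.92 (SE 0.0773, adjusted p = 4.15e-13). It measured 1679, 1600.4 and 1765 in DMSO and 6279.7, 6203 and 6487 in PTDSS1i in the U138MG-labelled libraries, a log2 fold change of 1.91 (SE 0.0382, adjusted p = 8.87e-26). The relative rise of *DHCR7*, 3.78-fold and 3.76-fold, lay above the median of the members in both lines.

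**Figure D2:**
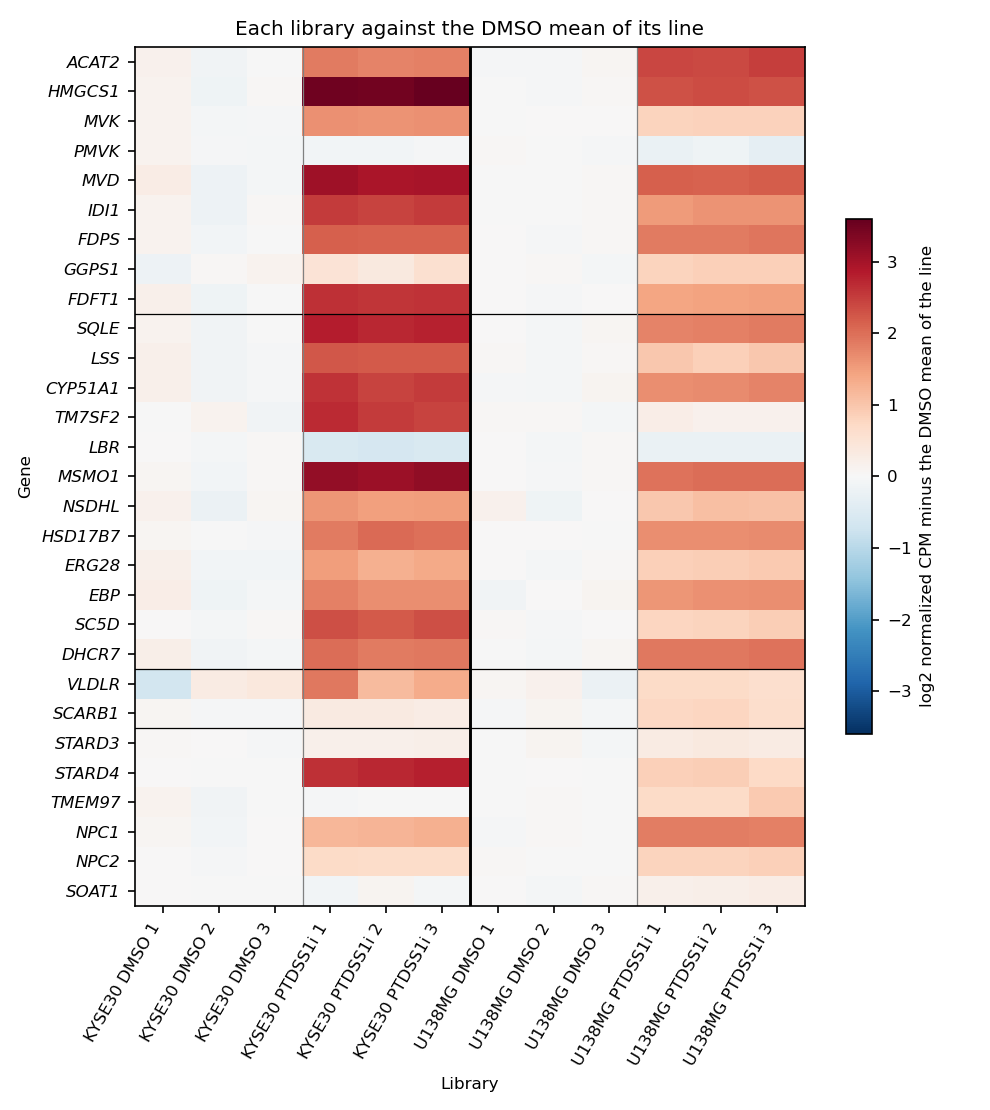
Colour gives, for each of the 29 members (rows, in pathway order) and 12 libraries (columns), log2 normalized CPM minus the mean log2 value of the 3 DMSO libraries of the same line. The 3 PTDSS1i columns of a line look alike and the DMSO columns stay near 0, apart from *VLDLR* in KYSE30, whose counts were low.

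The 2 receptors rose in both lines. *VLDLR* (chr9:2621834-2660053, plus strand), which takes up triglyceride-rich lipoproteins, was hardly expressed in KYSE30, at 0.391, 0.756 and 0.808 normalized CPM in DMSO and 2.33, 1.38 and 1.57 in PTDSS1i, with as few as 8 counts in a library. Its libraries did not overlap, and its log2 fold change of 1.41 (SE 0.298, adjusted p = 0.00031) had the widest interval of the members, 0.79 to 2.03. It measured 15.3, 16.4 and 12.7 in DMSO and 23.9, 23.8 and 22.3 in PTDSS1i in the U138MG-labelled libraries, a log2 fold change of 0.65 (SE 0.0856, adjusted p = 1.19e-07). *SCARB1*, the scavenger receptor that exchanges cholesterol with high-density lipoprotein, measured 142, 132 and 133 normalized CPM in DMSO and 170.2, 168 and 163 in PTDSS1i in KYSE30, a log2 fold change of 0.30 (SE 0.0507, adjusted p = 2.25e-05). The U138MG-labelled libraries held 307, 337 and 297 in DMSO and 523, 533 and 490.5 in PTDSS1i, a log2 fold change of 0.71 (SE 0.0446, adjusted p = 2.37e-10). The treatments overlapped for neither receptor, and *VLDLR* in KYSE30 was the one rise past a doubling.

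Among the 6 genes of sterol movement and storage, 4 rose in KYSE30 and 6 in the libraries labelled U138MG, with median log2 fold changes of 0.43 and 0.80. The START domain carriers differed from one another. *STARD4* (chr5:111496033-111512590, minus strand), a soluble carrier between the plasma membrane and the endoplasmic reticulum, measured 16.4, 16.1 and 16.2 normalized CPM in DMSO and 101, 107 and 113 in PTDSS1i in KYSE30, a log2 fold change of 2.72 (SE 0.0649, adjusted p = 2.04e-18). It measured 89.6, 92.3 and 90.8 in DMSO and 165, 167 and 149.9 in PTDSS1i in the U138MG-labelled libraries, a log2 fold change of 0.82 (SE 0.0414, adjusted p = 2.07e-16). *STARD3*, which is anchored in late endosomes and makes contacts with the endoplasmic reticulum, rose by 0.19 in KYSE30 (adjusted p = 0.00377), which did not pass with library size alone (0.09, adjusted p = 0.145), and by 0.31 in the libraries labelled U138MG.

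The lysosomal pair rose in both lines. *NPC1* (chr18:23506184-23586898, minus strand), the membrane protein that exports cholesterol from the lysosome, measured 114, 101 and 110.02 normalized CPM in DMSO and 249.6, 252 and 261 in PTDSS1i in KYSE30, a log2 fold change of 1.23 (SE 0.0537, adjusted p = 1.81e-14). The values in the U138MG-labelled libraries were 98.4, 104 and 99.97 in DMSO and 358, 362 and 350.5 in PTDSS1i, a log2 fold change of 1.83 (SE 0.0357, adjusted p = 5.82e-26). *NPC2*, the soluble protein that hands cholesterol to NPC1, rose from 224 ± 6.30 to 356 ± 2.97 and from 177 ± 3.76 to 311 ± 8.67 normalized CPM, log2 fold changes of 0.67 and 0.81. *TMEM97* (chr17:28319095-28328685, plus strand), the sigma-2 receptor, which binds NPC1, measured 41.5, 35.3 and 38.1 in DMSO and 36.9, 37.6 and 37.9 in PTDSS1i in KYSE30. The treatments overlapped, the log2 fold change was -0.03 (SE 0.0661, adjusted p = 0.683) and its 95% interval was -0.17 to 0.10. *TMEM97* measured 42.1, 43.8 and 42.9 in DMSO and 69.8, 69.8 and 82.2 in PTDSS1i in the U138MG-labelled libraries and rose by 0.79 (SE 0.0585, adjusted p = 1.18e-10). Exons of *IFT20* on the other strand cover 11.9% of *TMEM97*. *SOAT1*, which esterifies cholesterol for storage, measured 25.2, 24.5 and 24.6 in DMSO and 23.1, 26.5 and 23.8 in PTDSS1i in KYSE30, a log2 fold change of -0.02 (SE 0.0725, adjusted p = 0.813) with a 95% interval of -0.17 to 0.13. It measured 52.6, 49.3 and 53.1 in DMSO and 59.1, 59.6 and 61.8 in PTDSS1i in the libraries labelled U138MG. That rise of 0.22 (adjusted p = 0.000218) did not pass with library size alone (adjusted p = 0.173) or upper-quartile factors (adjusted p = 0.165).

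**Figure D3:**
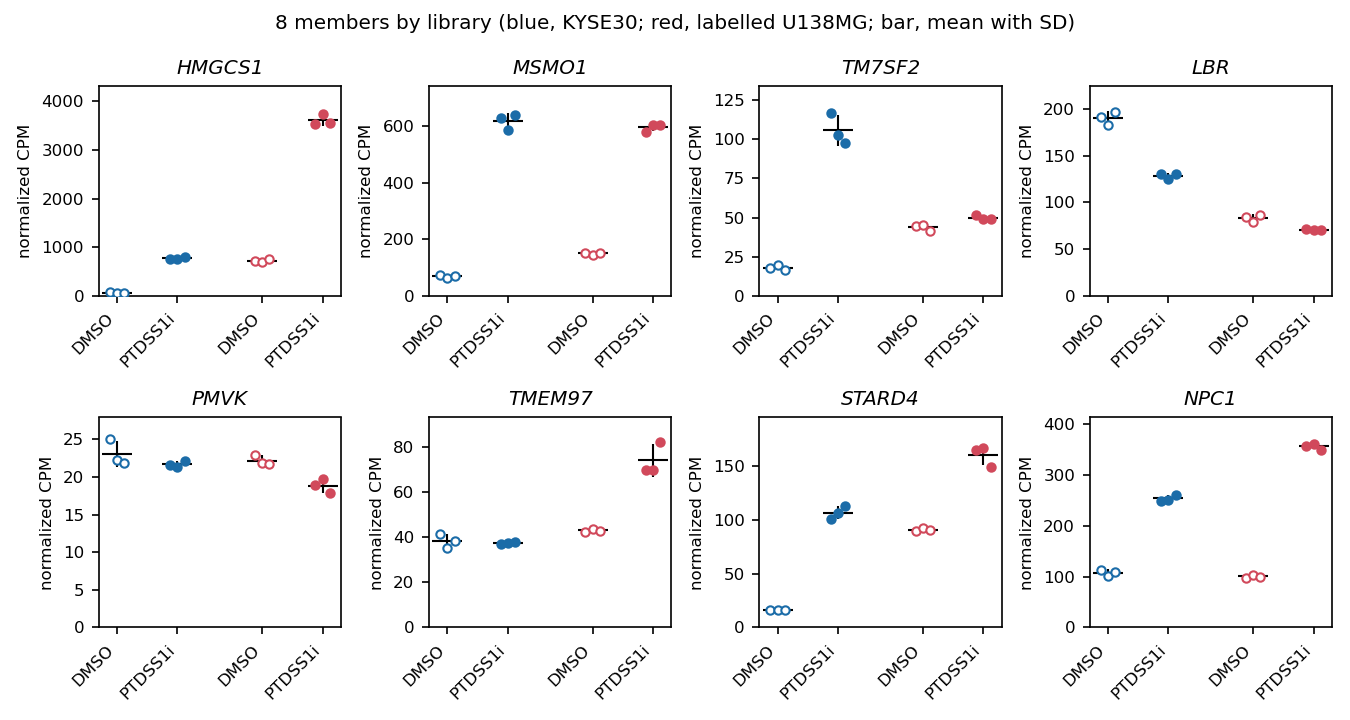
Normalized CPM by library for 8 members that rose in both lines, rose in 1 line or did not rise (open points, DMSO; filled points, PTDSS1i; blue, KYSE30; red, labelled U138MG; black bar, mean with SD, n = 3). *TMEM97* and *PMVK* overlap between treatments in KYSE30 and do not in the libraries labelled U138MG, and *LBR* is lower after PTDSS1i in both.

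The transcripts of the members spanned a wide range per kb of exon, with no test made between genes. *DHCR7* ranked first of 29 in all 4 groups, at 297 ± 37.5 normalized CPM per kb in DMSO and 1123 ± 57.4 in PTDSS1i in KYSE30, and at 404 ± 19.7 and 1520.01 ± 35.2 in the libraries labelled U138MG. *VLDLR* ranked last in all 4, from 0.0698 ± 0.0243 to 0.188 ± 0.0540 in KYSE30 and from 1.59 ± 0.200 to 2.50 ± 0.0975 in the libraries labelled U138MG. In KYSE30, *NPC2* was second in DMSO (81.6 ± 2.29) and eighth in PTDSS1i (129.6 ± 1.08), and *HMGCS1* went from rank 16 (14.4 ± 1.38) to rank 6 (164 ± 6.85). *HMGCS1* was second in both treatments in the libraries labelled U138MG, at 155 ± 5.22 and 767 ± 24.2. The tables of the lines were made and normalized separately and list different sets of genes, so levels were not compared between lines.

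**Figure D4:**
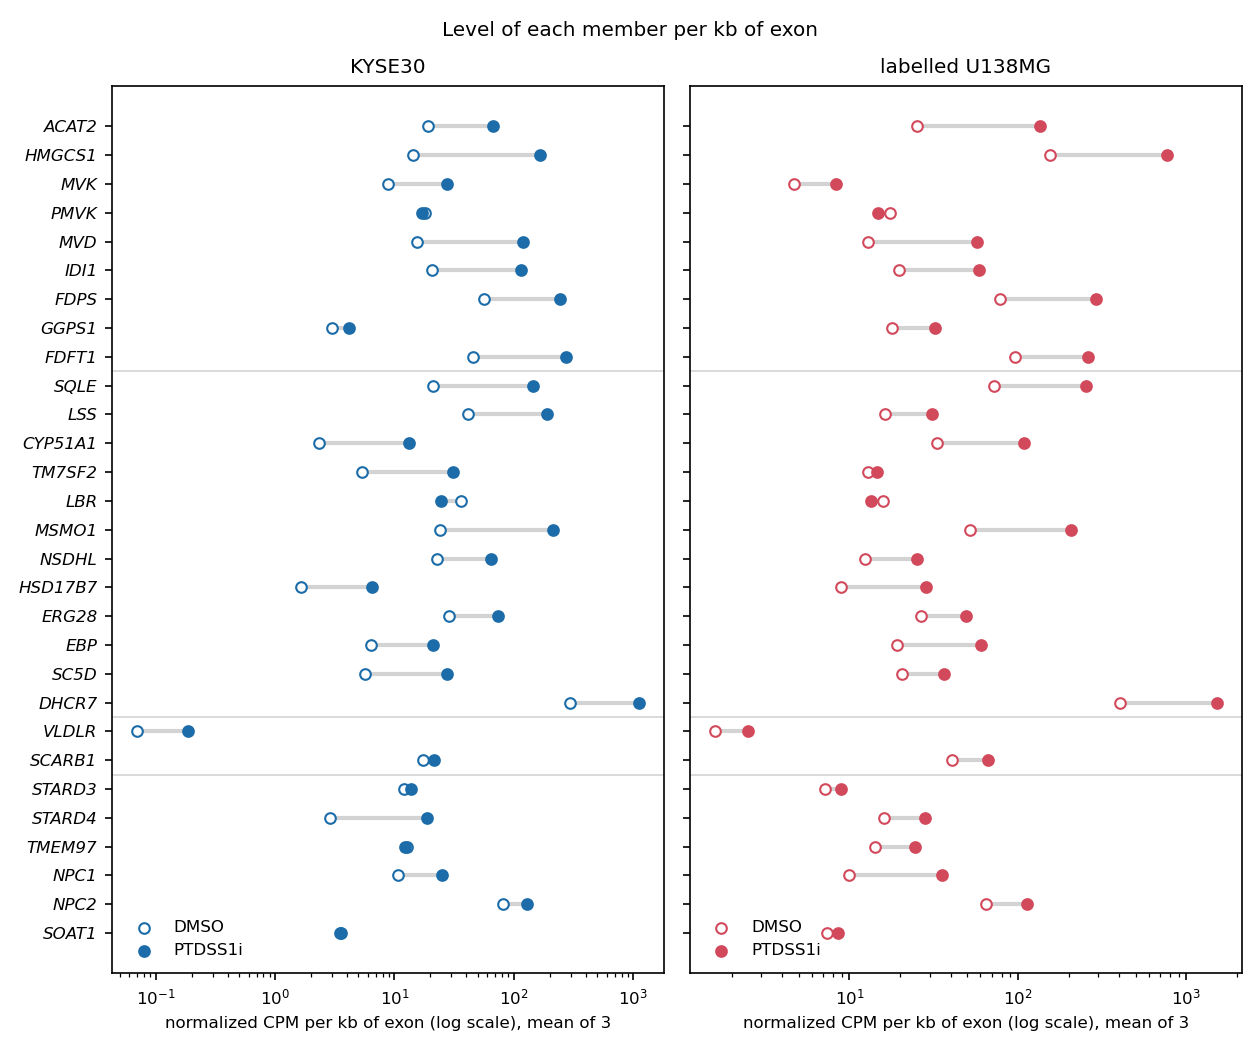
Mean normalized CPM per kb of exon (log scale; 3 libraries per group) of each member in DMSO (open) and PTDSS1i (filled), for KYSE30 on the left and the libraries labelled U138MG on the right, each panel with its own scale. *DHCR7* lies farthest right and *VLDLR* farthest left in both panels, and the filled point of *LBR* lies left of its open point in both.

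The size of the response differed between the lines for most members. The difference was tested as a line-by-treatment interaction over 18405 genes that both tables list, and 23 of 29 members passed. The log2 fold change was lower in the libraries labelled U138MG for 17 members, against 24.4% of all genes, and higher for 6, against 25.5%. The largest differences were in *TM7SF2*, at -2.40 (SE 0.0953, adjusted p = 6.52e-19), *STARD4*, at -1.94 (SE 0.0782, adjusted p = 3.18e-19), *SC5D*, at -1.50 (SE 0.0721, adjusted p = 2.27e-17), and *LSS*, at -1.31 (SE 0.0871, adjusted p = 2.87e-11). Each of these had risen by more than 2 on the log2 scale in KYSE30 and by less than 1 in the libraries labelled U138MG. The 6 with a higher log2 fold change in the libraries labelled U138MG were *TMEM97* (0.78), *ACAT2* (0.56), *NPC1* (0.56), *SCARB1* (0.37), *GGPS1* (0.32) and *LBR* (0.29), which fell less there. Thus 2 of the 9 mevalonate genes, 1 of the 12 later genes, 1 of the 2 receptors and 2 of the 6 transport genes were in this set. For *DHCR7* the difference was -0.05 with a 95% interval of -0.26 to 0.16, and for *EBP* -0.11 with -0.32 to 0.11. *PMVK*, *STARD3*, *NPC2* and *SOAT1* also did not pass, with intervals of -0.41 to 0.02, -0.08 to 0.23, -0.01 to 0.23 and 0.03 to 0.38.

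**Figure D5:**
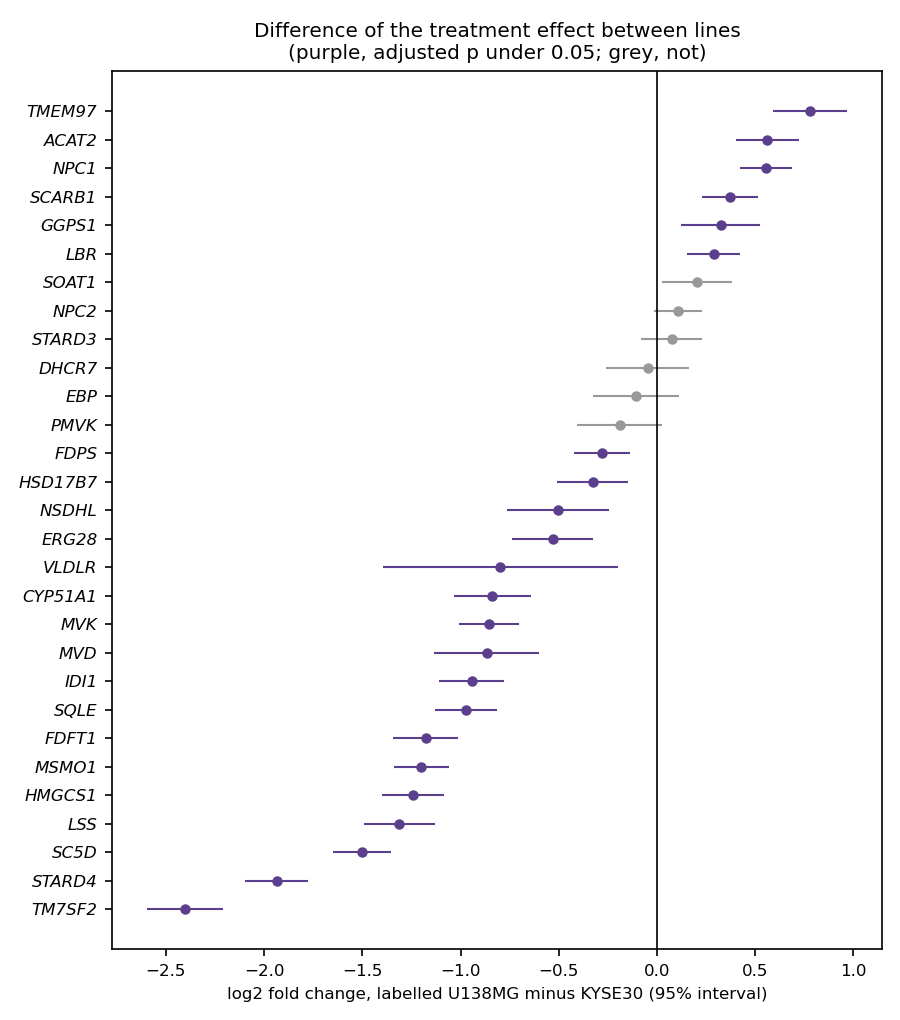
Difference of the log2 fold change, labelled U138MG minus KYSE30, for each member with its 95% interval from edgeR (12 libraries), ordered by size. Purple members passed at an adjusted p under 0.05 and grey ones did not, and *TM7SF2* and *STARD4* stand at the low end at -2.40 and -1.94.

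Some of these differences rested on single libraries. In KYSE30, DMSO replicate 1 was the highest of its group for 24 of 29 members, against 35.5% of all genes. Without it, 25 members differed between the lines in place of 23, with *DHCR7* at -0.17 (adjusted p = 0.0245), *EBP* at -0.24 (adjusted p = 0.0322) and *PMVK* at -0.27 (adjusted p = 0.0352) now past the threshold, and *VLDLR* at -0.56 (adjusted p = 0.128) no longer past it. *VLDLR* was also lost without KYSE30 PTDSS1i replicate 1 (-0.56, adjusted p = 0.137), and *GGPS1* without KYSE30 DMSO replicate 3 (0.23, adjusted p = 0.0674) or with upper-quartile factors (0.21, adjusted p = 0.0686). *SOAT1* passed without KYSE30 PTDSS1i replicate 2 (0.25, adjusted p = 0.025). The counts within each line did not move with DMSO replicate 1 left out, which gave 25 members higher and 1 lower in KYSE30.

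The genes of acetyl-CoA supply and use and of sterol sensing were taken from further lists. All 4 genes listed for cytosolic acetyl-CoA supply and use rose in both lines. Of all genes tested, 30.1% were higher in KYSE30 and 33.9% in the libraries labelled U138MG. The list includes the carboxylase that uses acetyl-CoA for fatty acid synthesis. *ACSS2*, which makes acetyl-CoA from acetate, went from 49.7 ± 1.97 to 569.9 ± 4.82 normalized CPM in KYSE30, a log2 fold change of 3.52 (adjusted p = 3.61e-21), and rose by 2.86 in the libraries labelled U138MG. *ACLY*, which makes it from citrate, rose by 2.05 and 1.79. Of 14 genes of sterol sensing and transcription, 8 rose and 5 fell in KYSE30, against 30.1% and 32.0% of all genes, and 4 rose and 8 fell in the libraries labelled U138MG, against 33.9% and 33.6%. *INSIG1*, itself a target of SREBP2, rose by 2.48 and 1.32, *SREBF2*, which encodes SREBP2, by 0.99 and 0.25. *SREBF1*, which encodes SREBP1, had a log2 fold change of 0.10 that did not pass in KYSE30 (adjusted p = 0.0966), although it passed with DESeq2 (0.11, adjusted p = 0.0291), with both lines fitted together (0.14, adjusted p = 0.0092) and without DMSO replicate 1 (0.11, adjusted p = 0.0362), and it fell by 0.17 on the log2 scale in the libraries labelled U138MG. *MYLIP*, a ligase that marks lipoprotein receptors for degradation, stood at -0.79 and -0.995.

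Genes of the branches that leave the sterol pathway moved in both directions. Of 13 genes of the non-sterol isoprenoid branch, 3 rose and 5 fell in KYSE30, shares near those of all genes (30.1% and 32.0%), and 6 rose and 2 fell in the libraries labelled U138MG, against 33.9% and 33.6% of all genes. *PDSS1* and *COQ2*, which make ubiquinone, had log2 fold changes of -1.32 and -0.73 in KYSE30, and *COQ2* had -0.47 in the libraries labelled U138MG. *DHDDS* and *NUS1*, the subunits of the enzyme that makes dolichol precursors, rose by 0.95 and 0.85 in the latter. Of the 28 genes of efflux, lysosomal release and contact-site transfer, 23 were tested in KYSE30, of which 12 rose and 6 fell, and 25 in the libraries labelled U138MG, of which 19 rose and 6 fell, against the same shares of all genes. In KYSE30, *OSBPL2* rose by 0.84 and *OSBP*, which trades sterol for phosphoinositide at membrane contacts, by 0.56. *ABCA1*, the main exporter to apolipoproteins, stood at -0.83 there. *ABCG1*, of the same list, rose by 0.40 in KYSE30, which did not pass with library size alone (0.29) or without DMSO replicate 1 (0.28). *ABCG1* rose by 1.07 in the libraries labelled U138MG, where *ABCA1* stood at 0.29. In the libraries labelled U138MG, *GRAMD1B*, a contact-site carrier that binds phosphatidylserine and cholesterol, rose by 1.44 and *LRP8*, a lipoprotein receptor, by 1.42. *OSBPL5*, which carries phosphatidylserine to the plasma membrane, went from 9.36 ± 0.411 to 3.08 ± 0.372 normalized CPM there, a log2 fold change of -1.60. *OSBPL8*, a relative of *OSBPL5*, rose by 0.21 in these libraries and by 0.30 in KYSE30. In KYSE30, *GRAMD1B* did not pass (0.05) and *OSBPL5* stood at -0.39. The median log2 fold changes of these lists in KYSE30 and in the libraries labelled U138MG were 1.63 and 1.49 for acetyl-CoA supply and use, 0.16 and -0.14 for sterol sensing, -0.13 and 0.10 for the isoprenoid branch, and 0.26 and 0.39 for efflux and transfer.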

How the data were processed

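Poly-A RNA libraries of 2 lines, treated with 100 nM PTDSS1i or DMSO for 48 h, were prepared with a kit that does not mark strand. The authors trimmed with Trimmomatic, aligned to hg38 with STAR and deposited raw counts per gene from featureCounts, per the submitters' processing notes (versions, annotation and strand setting are not given in the sources used here). Their methods give DMEM for U138MG, whereas the labels give the KYSE30 medium. In R 4.3.3, genes were kept by filterByExpr (minimum count 10, minimum total 15), scaled by TMM and tested within each line with edgeR 4.0.16 (robust quasi-likelihood test, Benjamini-Hochberg adjustment over all genes tested, threshold 0.05). Each standard error is the log2 fold change divided by the square root of its F, and each 95% interval uses the t quantile at that gene's degrees of freedom. The interaction of line and treatment was tested over genes listed in both tables (30358 shared identifiers). Gene coordinates and exon lengths came from GENCODE 29 on GRCh38, and promoters from RefSeq on GRCh38.p14.

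All 29 members were named. In other lists, at most the 3 highest and 3 lowest of the genes that passed could be named per line, plus *SREBF1*, *SREBF2* and *INSIG1*, while 5 genes that passed in opposite directions between the lines are given in the closing section. *OSBPL8*, and values of *ABCA1*, *GRAMD1B* and *OSBPL5* in the other line, were added with their values known. They were not run under the alternatives below. Some genes are not reported here. The members and lists were chosen with earlier results of these data known. The 8 members plotted by library were chosen after their values were seen. Libraries were not paired by replicate number in the main tests, and correlations of same-numbered libraries were 0.1 or less. Such values cannot show whether the libraries were paired in the experiment. Tests were tried on simulated data. Alternatives were library size alone, upper-quartile factors, DESeq2 1.42.0, other filters, leaving out each library, a replicate block, a joint fit of both lines and a threshold of 0.01. Counting error alone puts the limit of detection at 3 counts per library.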

Additional observations from a re-analysis of the deposited data

Results flagged for a closer look

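The response of 23 members differed between the lines in edgeR's interaction test with Benjamini-Hochberg adjustment. Each value here is the log2 fold change in the libraries labelled U138MG minus that in KYSE30. It was negative for *TM7SF2* (-2.40), *STARD4* (-1.94), *SC5D* (-1.50), *LSS* (-1.31), *HMGCS1* (-1.24), *MSMO1* (-1.20), *FDFT1* (-1.18), *SQLE* (-0.97), *IDI1* (-0.94), *MVD* (-0.87), *MVK* (-0.86), *CYP51A1* (-0.84), *VLDLR* (-0.80), *ERG28* (-0.53), *NSDHL* (-0.50), *HSD17B7* (-0.33) and *FDPS* (-0.28). It was positive for *TMEM97* (0.78), *ACAT2* (0.56), *NPC1* (0.56), *SCARB1* (0.37), *GGPS1* (0.32) and *LBR* (0.29). The lines also differed in batch and in the genes their tables list, which cannot be told apart, and the libraries labelled U138MG carried squamous markers.

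The following 5 genes from the further lists passed in opposite directions in the 2 lines, and the difference passed for each. They were chosen after their values were seen. *ABCA1* had log2 fold changes of -0.83 in KYSE30 and 0.29 in the libraries labelled U138MG, a difference of 1.08. *GRAMD1A*, a relative of *GRAMD1B*, had -0.45 in KYSE30 and 0.46 in the libraries labelled U138MG, a difference of 0.87, and *OSBPL1A*, an oxysterol-binding protein relative, had -0.27 in KYSE30 and 0.37 in the libraries labelled U138MG, a difference of 0.60. *MBTPS1*, the first protease that cuts SREBP, had 0.32 in KYSE30 and -0.20 in the libraries labelled U138MG, a difference of -0.56. *RXRB*, a nuclear receptor, had 0.17 in KYSE30 and -0.22 in the libraries labelled U138MG, a difference of -0.43.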

How the results depend on the processing

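The counts of members kept their direction under each alternative run, with 24 to 25 higher, 1 to 2 lower and 20 to 21 past a log2 fold change of 1 in KYSE30, 25 to 27 higher, 2 lower and 13 to 14 past 1 in the libraries labelled U138MG, and 22 to 25 that differed between the lines. No member, and no named gene that was run under the alternatives, turned its direction while past the threshold. With library size alone 2 members were lower in KYSE30, the second being *PMVK* (-0.19, adjusted p = 0.0317 by edgeR). That setting moved the median log2 fold change of all genes to -0.13 in KYSE30 and -0.17 in the libraries labelled U138MG, and the share of higher among called genes from 48.5% to 37.8% and from 50.2% to 37.1%. Upper-quartile factors moved the median to -0.17 and the share to 37.1% in the libraries labelled U138MG, and to -0.13 and from 51.2% to 41.5% for the difference between the lines. Calls of *TM7SF2* and *SOAT1* in the libraries labelled U138MG, and of *STARD3* in KYSE30, rested on this scaling. The strict filter dropped *VLDLR* in KYSE30, where a library held 8 counts. The replicate block gave 25, 27 and 24 members (higher in KYSE30, higher in the libraries labelled U138MG, different between lines), adding *SOAT1* to the last (0.20, adjusted p = 0.0444). In KYSE30 each library correlated best with the one of its own number (0.02 to 0.08), a hint from the data rather than the design, and in the libraries labelled U138MG not every library did.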

Other observations

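The DMSO libraries of KYSE30 were not equal for the sterol genes. Replicate 1 was the highest of the 3 for 24 of 29 members, replicate 2 for 1 and replicate 3 for 4, whereas over all genes tested the shares were 35.5%, 34.6% and 29.9%. After PTDSS1i the counts in KYSE30 were 17, 2 and 10. In the libraries labelled U138MG they were 6, 10 and 13 in DMSO and 3, 8 and 18 in PTDSS1i, where the third replicate was the highest for 35.5% of all genes.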
